A study of Mus musculus with 59 samples.

Results

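Dppa4 and Dppa2 are neighbouring genes on mouse chromosome 16 that encode a pair of chromatin-binding proteins with a SAP domain, which act together as a complex. They are active in pluripotent stem cells, early embryos and germ cells and are silent in fibroblasts, so they are among the genes that must be switched on when a fibroblast becomes pluripotent. The pair is known for activating genes of the early cleavage embryo, such as Dux, and for keeping developmental promoters free of DNA methylation. CTCF, a DNA-binding zinc-finger factor, holds the bases of chromatin loops together with cohesin and separates enhancers from promoters that they should not reach. SMARCA5 is the ATPase of ISWI remodelling complexes, which slide nucleosomes and are known to help CTCF occupy its sites.

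The locus was taken as the spans of both genes widened by 50 kb (mm10, chr16:48233735-48369513), and every peak of 16 deposited lists that overlaps it was used. These were 94 peaks, which fell on 16 separate sites when peaks that overlap by at least 1 bp were joined, out of 105010 sites in all lists and 3547 on chromosome 16. The members were therefore chosen by peak calls, and which lists hold a site is given as a description with no test. Dppa4 spans chr16:48283735-48294292 (10.6 kb) and Dppa2 spans chr16:48310274-48319513 (9.24 kb), with 16 kb between them. The gene table used gives no strand, exons or introns, so sites are placed by their distance from the gene spans.

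The series held 59 samples, 31 of them ChIP-seq samples with 16 peak lists and 28 input samples not used here. Cells on the way to pluripotency were OG2 mouse embryonic fibroblasts, which carry an Oct4-GFP reporter, given Oct4, Sox2, Klf4 and c-Myc (OSKM) in medium with vitamin C. In the sorted series, OSKM came from a doxycycline-inducible lentivirus, and cells carried a control shRNA against luciferase or an shRNA against Ctcf. Its populations were unsorted day 0 cells, Thy1+ cells (days 3 and 9), SSEA1- Thy1- cells and SSEA1+ cells (both days 6 and 9), and Oct4-GFP+ cells of day 12. Thy1 is a surface protein of fibroblasts, and SSEA1 is a surface sugar of cells further along. Unsorted day 10 cells received OSKM retroviruses alone, OSKM with Ctcf, or OSKM with Ctcf and an shRNA against Smarca5. Embryonic stem cells (ESCs) of the E14Tg2a line were wild type or Smarca5 knockout, made with a Cas9 nickase. SMARCA5 was pulled down with streptavidin from E14Tg2a cells overexpressing a Flag-biotin-tagged protein, after picking of single clones. ESCs were cultured with LIF and inhibitors of MEK and GSK3.

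Each group had 1 list, made from 1 to 3 samples. Differences between lists thus rest on 1 list a side. The wild-type and Smarca5 knockout ESC CTCF lists and the day 10 list with Smarca5 shRNA came from 1 sample each. Lists held 23600 to 89567 peaks of 400 bp with no strength, and sequencing depth is not given in the sources used here. Intervals below are Wilson 95% intervals, which cover counting error only. The labels of the day 3 Thy1+ samples conflict on which of them received Ctcf shRNA. Peak lists do not measure RNA, so the levels of Dppa2, Dppa4, Ctcf and Smarca5 and the identity of the sorted cells could not be checked.

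The sites formed a dense inner group around the genes and a few outer sites. On the Dppa4 side lay 5 sites, at 48.3, 47.3, 20.4, 4.18 and 2.29 kb from the Dppa4 span. A further 5 sites lay between the start of Dppa4 and the end of Dppa2, namely 1 inside Dppa4 (chr16:48285497-48285896), 2 between the genes (chr16:48304330-48304729 and chr16:48307659-48308058) and 2 inside Dppa2 (chr16:48311237-48311636 and chr16:48312987-48313387). Beyond Dppa2 lay 6 sites, at 1.23, 3.07, 8.87, 14.7, 22.1 and 47.3 kb from its span. The widest gaps between neighbouring sites were 26.5 kb on the Dppa4 side and 24.8 kb on the Dppa2 side.

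The sites were of a recurrent kind or a rare kind. Of the 16 sites, 4 were held by 12 or more of the 15 CTCF lists, 11 by 5 or fewer, and 1 by 7. Over all 102380 CTCF sites, 31.8% were held by 12 or more lists and 48.2% by 5 or fewer. The site 47.3 kb beyond Dppa2 (chr16:48366781-48367196) was in all 15 CTCF lists and in the SMARCA5 list, a pattern over the CTCF lists shared by 16.2% of all CTCF sites. The site 8.87 kb beyond Dppa2 (chr16:48328378-48328800) was in 13 CTCF lists and was missing from the day 0 and day 12 lists with Ctcf shRNA. The site 1.23 kb beyond Dppa2 (chr16:48320742-48321353) was in 12 and was missing from the day 0 control list and from the SSEA1- Thy1- and day 12 lists with Ctcf shRNA. The site 48.3 kb from Dppa4 (chr16:48234974-48235396) was also in 12, and was missing from both day 0 lists and the day 10 OSKM list.

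**Figure D1:**
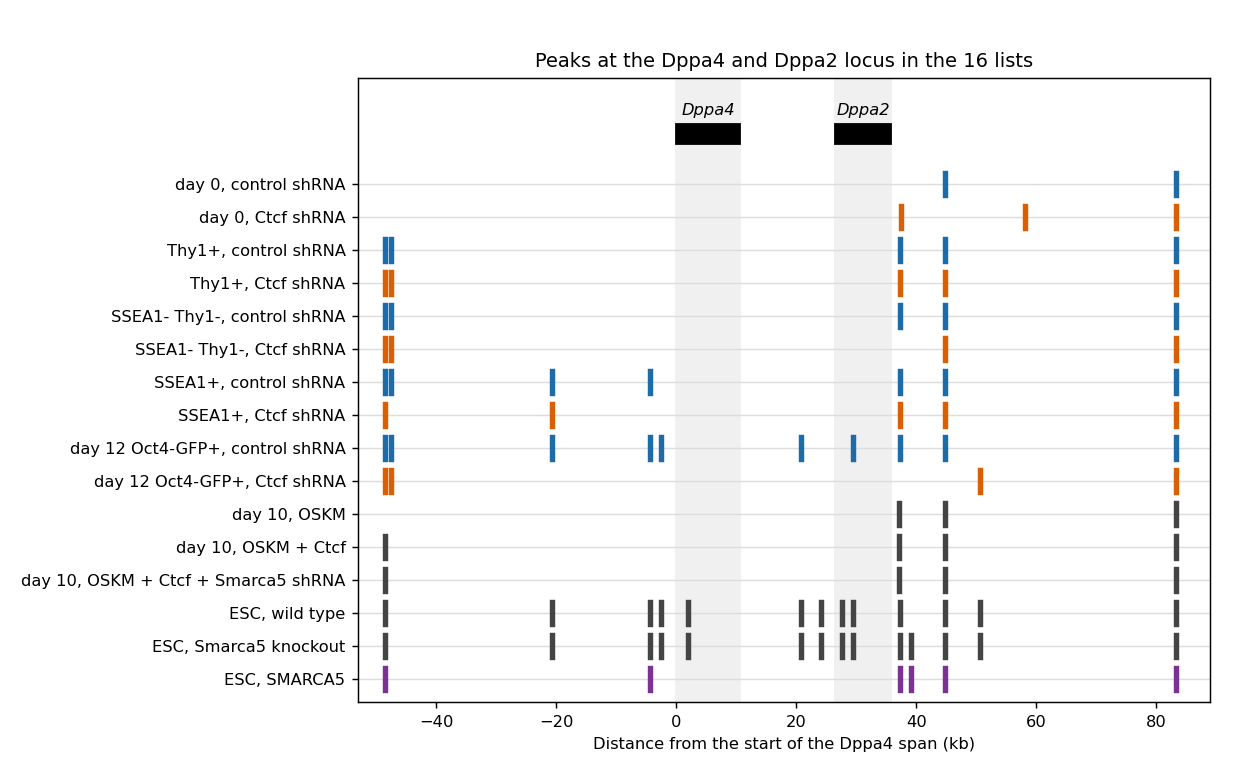
Map of the peaks at the locus in each of the 16 lists, with the distance from the start of the Dppa4 span in kb on the horizontal axis. Each tick is 1 peak, drawn wider than its 400 bp, in blue for control shRNA, orange for Ctcf shRNA, grey for day 10 and ESC CTCF lists and purple for SMARCA5, and grey bands mark the gene spans. Peaks between the start of Dppa4 and the end of Dppa2 occur in 3 lists, the day 12 control list and the 2 ESC CTCF lists.

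Peak number at the locus went up along the control lists. The day 0 control list held 2 peaks there, the Thy1+ list 5, the SSEA1- Thy1- list 5, the SSEA1+ list 7, the day 12 Oct4-GFP+ list 10 and the wild-type ESC list 13. Scaled to list length, these were 0.694, 0.947, 0.983, 1.35, 1.89 and 1.56 peaks at the locus per 10000 peaks of the list, so the day 12 list was the highest on this scale and the longer ESC list lay below it. Both day 0 peaks were in every later control list. From day 0 to day 12, 2 of 2 peaks were kept, with 7.25% of all day 0 peaks absent at day 12, and 8 of 10 were added, with 49.3% of all day 12 peaks absent at day 0. The day 10 OSKM list of unsorted cells held 3 peaks. Of these, 2 were in the day 0 control list, and the third was the site 1.23 kb beyond Dppa2. In the whole lists 38.9% of day 10 OSKM peaks were absent from day 0 and 8.19% of day 0 peaks were absent from day 10.

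Through day 12 the control lists added sites in 3 steps. The sites added between the day 0 and Thy1+ control lists were the outer 2 on the Dppa4 side, at 48.3 and 47.3 kb, and the one 1.23 kb beyond Dppa2. Those lists differ in coordinates and length, and 47.0% of all Thy1+ peaks were absent from the day 0 list, while 3.39% of day 0 peaks were absent from the Thy1+ list. The SSEA1+ control list added the sites 20.4 and 4.18 kb from Dppa4, 2 of its 7 peaks, against 10.7% of its peaks in the whole list. The day 12 control list added 3 of its 10 peaks, against 17.1% in the whole list. These were the site 2.29 kb from Dppa4, one between the genes (5.54 kb from Dppa2) and one inside Dppa2 (chr16:48312987-48313387).

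Through the sorted control lists no peak at the locus was dropped, from 5 of 5 between Thy1+ and SSEA1- Thy1- cells to 7 of 7 between SSEA1+ and day 12. In the whole lists 16.4% of peaks were absent at the first of these steps, 8.84% at the next and 15.4% at the last. The first step also added no peak at the locus, where 13.2% of all SSEA1- Thy1- peaks were absent from the Thy1+ list. With so few peaks, the share kept has a lower bound of 56.6% at the first step and 64.6% at the last.

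Day 12 cells and ESCs had most sites of the locus in common. Of the 10 day 12 control peaks, 9 were in the wild-type ESC list (59.6 to 98.2%), where 6.18% of all day 12 peaks were absent. The exception was the site 47.3 kb from Dppa4. The ESC list held 4 more, 1 inside Dppa4, 1 between the genes, 1 inside Dppa2 and 1 at 14.7 kb beyond Dppa2. That is 4 of 13, while 40.4% of all wild-type ESC peaks were absent from the day 12 control list. The first 3 of these were found in the 2 ESC CTCF lists and no other, as were 15.3% of all CTCF sites.

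**Figure D2:**
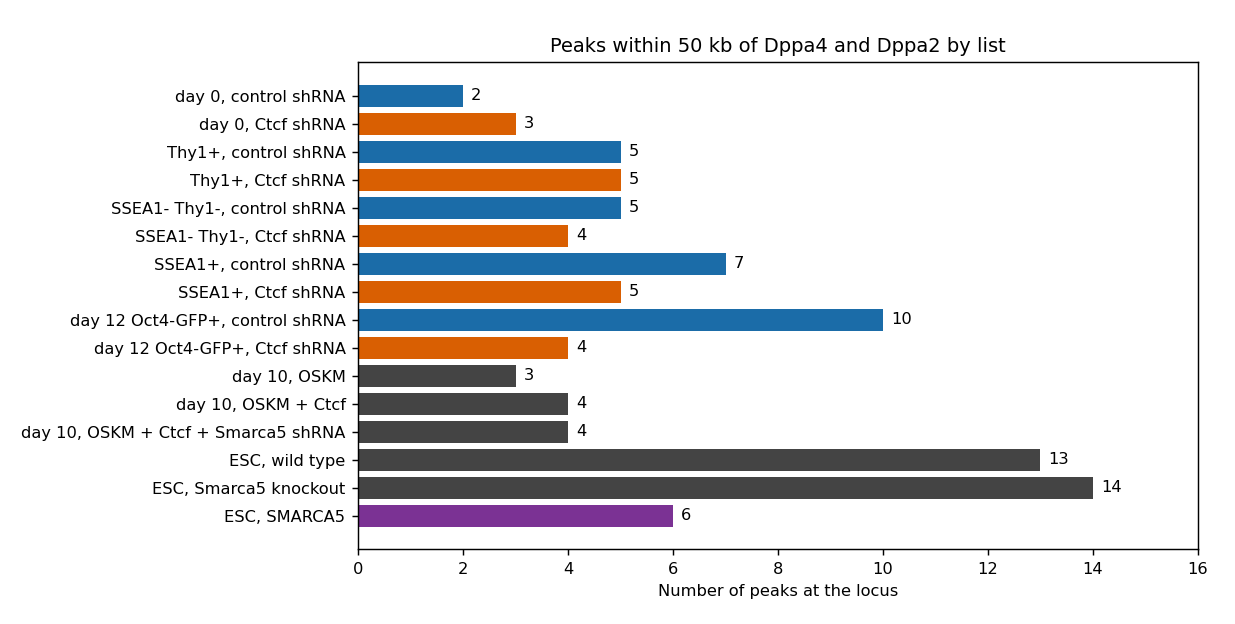
Number of peaks within 50 kb of Dppa4 and Dppa2 in each of the 16 lists. Bars are blue for control shRNA, orange for Ctcf shRNA, grey for day 10 and ESC CTCF lists and purple for SMARCA5, and run from 2 in the day 0 control list to 14 in the Smarca5 knockout list.

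The Ctcf shRNA comparisons asked which of these sites remain listed when Ctcf is knocked down at each stage. Day 12 Oct4-GFP+ cells had the lowest share of kept sites of the 5 populations, 3 of 10 (30%, 10.8 to 60.3). In the whole list 41.4% of control peaks were absent (58.6% kept, 58.1 to 59.0), and on chromosome 16 56.3% were kept (54.0 to 58.6). The interval at the locus contains both shares with the 50 kb window. With the spans widened by 10 kb, 0 of 6 sites were kept (0 to 39.0%), since that window leaves out the 3 kept sites. Neighbouring peaks of 1 pair of lists are not replicates, so a difference from the whole list was not tested. The 3 kept sites were outer ones, at 48.3 and 47.3 kb from Dppa4 and 47.3 kb from Dppa2. The 7 absent sites were all those between 20.4 kb before Dppa4 and 8.87 kb beyond Dppa2, including the 2 held by the control lists of all 4 sorted populations, at 1.23 and 8.87 kb.

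Of the 7 absent sites at day 12, 5 belonged to classes of peaks that were mostly absent in the whole list. Day 12 control peaks found in no other sorted control list were absent with Ctcf shRNA in 73.1% of 5651 cases, and at the locus in 3 of 3. Peaks found from SSEA1+ cells on were absent in 66.5% of 1697 cases, and at the locus in 2 of 2. Peaks in all 4 sorted control lists were absent in 30.7% of 38070 cases, and at the locus in 2 of 5. These classes were chosen after the values were seen. Within 500 kb on both sides of the locus, 8 of 13 day 12 control peaks were kept (61.5%).

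In the same day 12 cells 1 peak was listed only with Ctcf shRNA, at 14.7 kb beyond Dppa2 (chr16:48334189-48334608), where 13.4% of that list's peaks were absent from the control. It is a site of both ESC CTCF lists and of no other. Of 3 such peaks within 500 kb on both sides, 2 were also wild-type ESC sites. In the whole list, 71.4% of the 4781 peaks seen only with Ctcf shRNA at day 12 were wild-type ESC sites (70.1 to 72.7). That share was lower than among day 12 peaks in general. Of all 35803 peaks of the Ctcf shRNA list 33137 overlapped a wild-type ESC peak, as did 93.8% of the day 12 control peaks.

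Counted by gene, the day 12 list with Ctcf shRNA had 6 peaks fewer around Dppa2 (2 against 8) and 6 fewer around Dppa4 (3 against 9), with 1 of 8 and 2 of 9 control peaks kept. The windows of the 2 genes overlap and share most of these peaks. Over 21887 protein-coding genes, with each span widened by the same 50 kb, the median change was -1, and 4.29% changed by -6 or further. Longer genes have wider windows, and gene length was not adjusted for. Among the 12104 genes with at least 5 day 12 control peaks, a limit set after the values were seen, the median share kept was 60%. A share as low as 12.5%, that of Dppa2, or lower was found for 0.611% of them, and one as low as 22.2%, that of Dppa4, for 3.76%. Genes are not independent replicates.

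**Figure D3:**
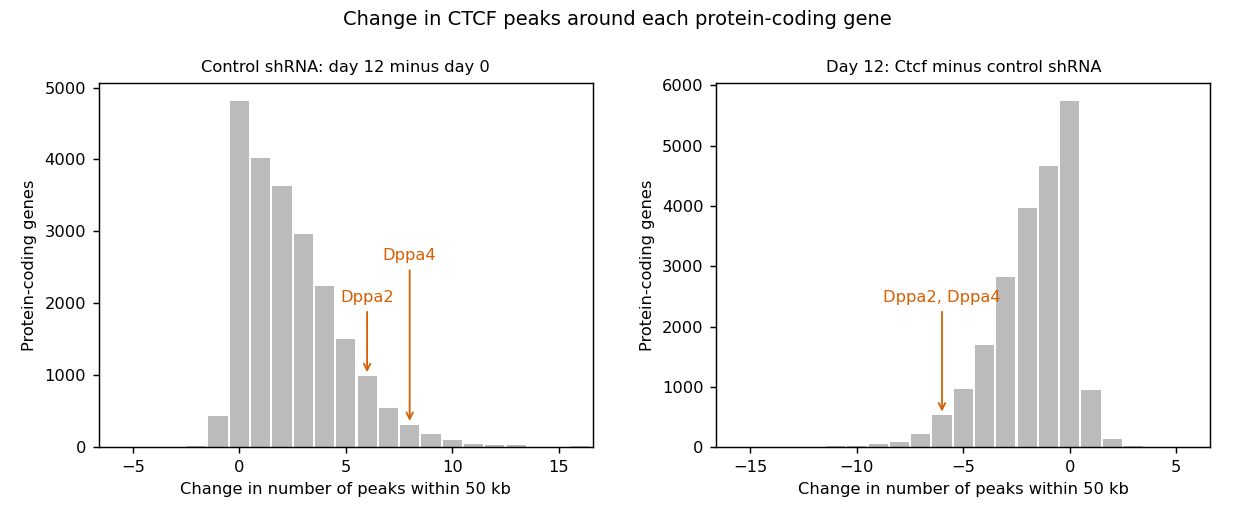
Histograms of the change in the number of CTCF peaks within 50 kb of each of 21887 protein-coding genes, from day 0 to day 12 with control shRNA (left) and from control to Ctcf shRNA at day 12 (right), with 16 and 3 genes beyond the axes. Arrows mark Dppa2 (+6) and Dppa4 (+8) on the left and both at -6 on the right.

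SSEA1+ cells kept 5 of 7 sites (71.4%, 35.9 to 91.8), with 18.0% of all control peaks absent. The absent sites were those at 47.3 and 4.18 kb on the Dppa4 side. The site at 4.18 kb was thus listed with control shRNA in both SSEA1+ and day 12 cells and with Ctcf shRNA in neither. No peak was listed only with Ctcf shRNA in SSEA1+ cells, against 4.51% of that list. SSEA1- Thy1- cells kept 4 of 5 (80%, 37.6 to 96.4), with 18.0% absent in the whole list, and the absent site was the one 1.23 kb beyond Dppa2. There too no peak was listed only with Ctcf shRNA, against 5.73% of the list. Thy1+ cells kept 5 of 5 (56.6 to 100%), with 18.9% absent in the whole list. The 2 Thy1+ lists held the same 5 sites, where 5.5% of the Ctcf shRNA list was absent from the control, so their order does not matter at the locus. Each Thy1+ list comes from a day 3 and a day 9 sample, however. If the day 3 samples were exchanged, each list would mix control and Ctcf shRNA, and the 5 of 5 would not compare knockdown with control. Steps that use the Thy1+ control list would then rest on a mixed list too.

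Day 0 cells kept 1 of 2 sites (50%, 9.45 to 90.5), with 26.7% of all control peaks absent. The kept site was the outer one on the Dppa2 side, and the absent one, the only site of this list within 10 kb of the gene spans, was 8.87 kb beyond Dppa2. With Ctcf shRNA 2 of 3 peaks had no counterpart in the control, against 10.4% of that list. One was the site 22.1 kb beyond Dppa2 (chr16:48341577-48341976), found in no other list, and the other was the site 1.23 kb beyond Dppa2, 7.02 kb from the absent one. Its day 0 interval started 153 bp from that of the sorted lists, 168 bp from that of the ESC lists and 212 bp from that of the day 10 lists. The 2 day 0 lists do not have a common set of positions, with identical starts at 2.43% of the control peaks that overlap a Ctcf shRNA peak.

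Within the Ctcf shRNA series itself, 2 of the 5 SSEA1+ peaks were in the day 12 list (40%, 11.8 to 76.9), where 35.8% of all SSEA1+ peaks were absent. The day 12 list held 2 others, at 47.3 kb from Dppa4 and 14.7 kb beyond Dppa2, against 20.1% of its peaks. With control shRNA the same step kept 7 of 7 and added 3.

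Over the 5 populations, the outer site beyond Dppa2 was kept in 5 and the site 48.3 kb from Dppa4 in the 4 that had it. The site 8.87 kb beyond Dppa2 was kept in 3 and absent in 2, and the one at 1.23 kb was kept in 2, absent in 2 and listed only with Ctcf shRNA in 1. The sites 2.29 kb from Dppa4, between the genes at 5.54 kb from Dppa2 (chr16:48304330-48304729) and inside Dppa2 at chr16:48312987-48313387 had a control peak only at day 12 and were absent there with Ctcf shRNA. The other sites between the genes and inside Dppa2, and the one inside Dppa4, were in none of these lists.

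**Figure D4:**
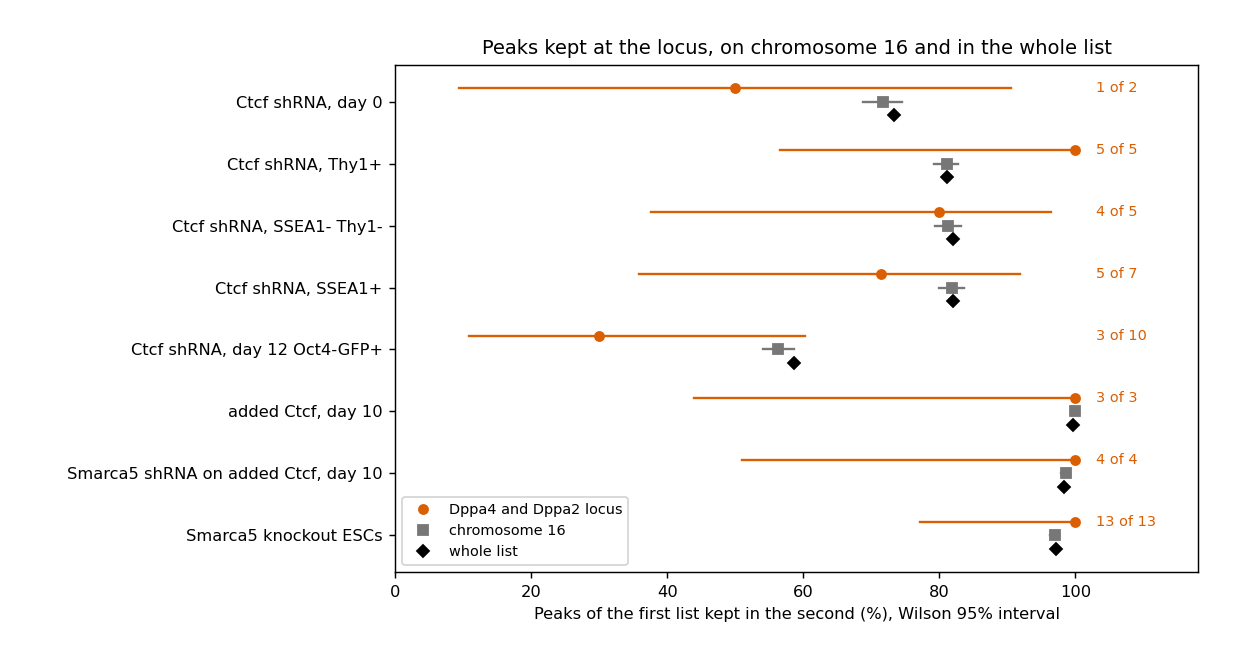
Share of first-list peaks that were also in the second list, in percent with Wilson 95% intervals, at the locus (orange, with counts at the right), on chromosome 16 (grey) and in the whole list (black). The locus had 3 of 10 peaks kept with Ctcf shRNA at day 12 and 13 of 13 in the Smarca5 knockout, and in each of the 8 comparisons its interval contains the share of the whole list.

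In day 10 cells, the comparison with added Ctcf asked which sites join the list when Ctcf is overexpressed. All 3 OSKM sites, those 1.23, 8.87 and 47.3 kb beyond Dppa2, were kept (43.9 to 100%), where 0.33% of all peaks were absent. The fourth peak with added Ctcf was the site 48.3 kb from Dppa4, and 17.3% of the peaks of that list were absent with OSKM alone. Every sorted list, day 12 included, also held this site. The list with Smarca5 shRNA added to OSKM and Ctcf held the same 4 sites (51.0 to 100% kept), with 1.72% of all peaks absent and 0.542% new. None of the 3 day 10 lists had a peak between 48.3 kb before Dppa4 and 1.23 kb beyond Dppa2.

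In ESCs, the Smarca5 knockout list kept 13 of 13 wild-type sites at the locus (77.2 to 100%), where 2.88% of all wild-type peaks were absent. It held 1 more, 3.07 kb beyond Dppa2 (chr16:48322583-48322982), with 9.81% of all knockout peaks absent from wild type. This is also the only SMARCA5 peak of the locus with no wild-type CTCF peak. In the whole SMARCA5 list 6.62% of 46965 peaks had a CTCF peak in the knockout and none in wild type.

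SMARCA5 had 6 peaks at the locus, 48.3 and 4.18 kb from Dppa4 and 1.23, 3.07, 8.87 and 47.3 kb beyond Dppa2, and none between the start of Dppa4 and the end of Dppa2. Wild-type CTCF peaks coincided with SMARCA5 at 5 of 13 sites (38.5%, 17.7 to 64.5), with 51.4% of all wild-type CTCF peaks lacking SMARCA5. In the other direction 5 of 6 SMARCA5 peaks had a wild-type CTCF peak (83.3%, 43.6 to 97.0), with 13.9% of all SMARCA5 peaks lacking one. All 6 had a CTCF peak in the knockout (61.0 to 100%), with 9.02% of all SMARCA5 peaks lacking one and 52.3% of all knockout CTCF peaks lacking SMARCA5. The 5 sites with SMARCA5 were each held by 4 to 15 CTCF lists (median 12), and the 8 without it by 2 to 5 (median 3). Over all wild-type ESC sites the medians were 12 lists with SMARCA5 (40411 sites) and 6 without (42746). All 5 sites of the gene spans and the stretch between them were without SMARCA5.

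The first sites outside the window were far off on the Dppa4 side, at 154 and 156 kb. On the Dppa2 side they lay at 101 and 111 kb, so the choice of 50 kb set the members only on the inside, where the outermost sites lay 48.3 kb from Dppa4 and 47.3 kb from Dppa2. The site at 111 kb (chr16:48430992-48431446) covers the first base of the Morc1 span, a gene needed for transposon silencing in male germ cells. It was in 12 of the 15 CTCF lists and missing from the Ctcf shRNA lists of day 0, Thy1+ and day 12 cells. The sites at 101 and 156 kb were listed, among the sorted cells, only with Ctcf shRNA at day 12, and were held by both ESC CTCF lists. Within 500 kb of the pair the table has 4 other protein-coding genes, Gm52257, Morc1, Trat1 and Retnlb. Inside the Morc1 span the control lists held 3 peaks at day 0, 5 at day 12 and 6 in wild-type ESCs.

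Genes with which Dppa2 and Dppa4 are commonly grouped were counted with their spans widened by 50 kb in the same way. From day 0 to day 12 with control shRNA, all 21 genes of a pluripotency network list had more peaks, with a median change of 5, against 75.9% of all protein-coding genes and a median of 2. Among them Klf5 went from 0 to 6, Tfcp2l1 from 0 to 3 and Nr0b1 from 0 to 2. Over all protein-coding genes 1537 went from 0 to at least 1 at this step. All 5 genes named Dppa, a list grouped by name, had more peaks. Dppa3 and Dppa5a are also in the pluripotency list, so the lists are not independent. Dppa4 went from 1 to 9 and Dppa2 from 2 to 8, in windows that share most peaks. Dppa3 went from 4 to 10, Dppa5a from 4 to 5 and Dppa1 from 3 to 4. Of all protein-coding genes, 3.35% gained at least as many peaks as Dppa4 and 10.4% at least as many as Dppa2. The day 12 control list is also longer, with 53043 peaks against 28838. Of 16 germ cell genes 12 had more. Of 11 genes of the early cleavage programme, many of them multicopy genes at which short reads map poorly, 5 had more. These were Duxf3 (0 to 2), which codes for the Dux protein, and Zfp352, Tdpoz3, Tdpoz4 and Tcstv3 (each 0 to 1).

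With Ctcf shRNA at day 12, 19 of the 21 pluripotency genes had fewer peaks, with a median change of -3, against 68.7% of all genes and a median of -1. Tfcp2l1 went from 3 to 0 and Nr0b1 from 2 to 0. All 5 Dppa genes had fewer, with Dppa3 going from 10 to 6, Dppa5a from 5 to 4 and Dppa1 from 4 to 2, so that Dppa2 and Dppa4 had the largest changes of the 5. Of the germ cell genes 12 of 16 had fewer and Rpl10l went from 0 to 1. In the cleavage list Duxf3 went from 2 to 0, Zfp352, Tdpoz3 and Tdpoz4 each from 1 to 0, and Zscan4d from 0 to 2. Of the 19304 genes with a day 12 control peak 1044 went to 0, and 156 others went from 0 to at least 1.

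Changes from control to Ctcf shRNA in Thy1+, SSEA1- Thy1-, SSEA1+ and day 0 cells come first. In Thy1+ cells, whose day 3 labels conflict, Klf5, Tfcp2l1 and Rpl10l went from 1 to 0, against 297 of all 19095 genes with a control peak. None of the 5 Dppa genes had another number there, nor did 9562 of all 21887 genes. In SSEA1- Thy1- cells Zscan4d, Zfp352, Rpl10l and Tfcp2l1 went from 1 to 0 and Nr0b1 from 2 to 0, against 383 of all 19134 genes. In SSEA1+ cells Zscan4d, Zfp352 and Slc25a31 went from 1 to 0 and Tfcp2l1 from 2 to 0, against 379 of all 19163 genes. In day 0 cells Sycp3 and Nr5a2 went from 2 to 0 and Taf7l from 1 to 0, against 868 of all 17841 genes. With added Ctcf on day 10, Zfp352, Tdpoz3, Tdpoz4 and Nr0b1 each went from 0 to 1, as 288 of all genes went from 0 to at least 1. No listed gene went to or from 0 with Smarca5 shRNA, where 21 of all genes went to 0 and 4 from 0, or in the Smarca5 knockout, where 28 went to 0 and 65 from 0.

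The genes whose peak numbers over the 15 CTCF lists were most like those of Dppa2 were Spata17 on chromosome 1 (summed absolute difference 8), Sod1 on chromosome 16 (9) and Lrrc59 on chromosome 11 (10). Those most like Dppa4 were Lrrc59 (8), Camk1 on chromosome 6 (8) and Rabgap1 on chromosome 2 (10). Pearson's r over the lists was 0.96 or 0.97 for each, a description over lists that share samples' sources, coordinates and length. The genes came from 21876 that lie over 1 Mb away. Sod1 had 2 peaks at day 0 and 8 at day 12 with control shRNA, as Dppa2 had, and 3 at day 12 with Ctcf shRNA where Dppa2 had 2.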

How the data were processed

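CTCF and SMARCA5 ChIP-seq peaks were analysed as deposited. The authors' score is 0 in each line of the deposited files, so peaks could not be ranked or filtered. Per the submitters' processing notes the build was mm10 (GRCm38), with Bowtie2, MACS2, HOMER, bedtools, deepTools, Picard, SAMtools, Trim Galore and FastQC named. Which step each served, versions, thresholds and pooling are not given in the sources used. Overlapping peaks have identical starts within the day 10 lists and within the ESC lists, and in at least 99.9% of cases within the lists of the sorted cells, which can raise overlaps there. Groups follow sample titles. Kept means an overlap of at least 1 bp with a peak of the second list. Gene spans came from RefSeq GRCm38.p6, and all 51 listed genes were matched. Promoter sequences of Dppa2 and Dppa4 were not used here, so the planned motif search was not made.

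The members and lists were chosen with earlier results of these data known. Named genes were Dppa2, Dppa4, genes within 500 kb, listed genes whose peak number went to or from 0, and the 3 genes most alike for each member. The counting of kept peaks was tested on data simulated from the day 12 control list, and no other comparison was simulated. Of its 53043 peaks 59.81% were kept at random with shifted positions, and 59.98% were recovered as kept. Overlapping peaks of the real day 12 lists mostly have identical starts, and the simulation does not test the share kept at the locus. The work used SciPy 1.17.1, NumPy 2.4.6 and matplotlib 3.10.9 under Python 3.11.15. Sensitivity alternatives were the window width, the joining distance, the overlap and the Thy1+ lists.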

Additional observations from a re-analysis of the deposited data

Results flagged for a closer look

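The site 1.23 kb beyond Dppa2 went opposite ways with Ctcf shRNA in different populations. It was listed only with Ctcf shRNA in 1 population, day 0 cells, and only with control shRNA in 2, the SSEA1- Thy1- and day 12 cells. The difference between populations was not tested, since each has 1 list per shRNA. The day 0 lists have their own coordinates, and the day 0 interval there started 153 bp from the one in the sorted lists.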

How the results depend on the processing

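With the gene spans widened by 10 kb in place of 50 kb, the locus had 10 sites in place of 16, and the kept share with Ctcf shRNA was 0% both in day 0 cells (0 of 1) and in day 12 cells (0 of 6), since the kept outer sites lie outside that window. The other 7 kept shares stayed inside the interval of the main value there. Widening by 100 kb, joining peaks within 200 bp, leaving out the 2 Thy1+ lists and asking for a reciprocal overlap of 50% changed neither the 16 sites nor any kept share, each where it applied. A stricter peak threshold was not run because the score is 0 in each line. No paired analysis was possible because each group has 1 list, and for the same reason no replicate could be left out. Depth and peak strength are unknown, so an absent peak may be a weaker one.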

Other observations

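The site 47.3 kb from Dppa4 (chr16:48236016-48236415) was held by 7 of the 8 Thy1+, SSEA1- Thy1-, SSEA1+ and day 12 lists and by none of the day 0, day 10 and ESC lists. It lies 0.619 kb from its neighbour at 48.3 kb, which the ESC lists and 2 of the day 10 lists also held. The 8 lists share a set of positions that the other lists do not, so population and list set cannot be told apart for this site. Over all 102380 CTCF sites, 10 (0.00977%) had its combination of lists. The combination of the site 1.23 kb beyond Dppa2 was shared by 19 sites (0.0186%), while that of the sites 2.29 kb from Dppa4, between the genes at 5.54 kb from Dppa2 and inside Dppa2 at chr16:48312987-48313387 was shared by 2127 (2.08%).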
